A study of Platichthys stellatus with 16 samples.

Results

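Starry flounder (Platichthys stellatus) is a flatfish of cold coastal waters, and the table deposited for it holds 16270 assembled features, of which 11465 carry a Swiss-Prot name. Of these, 15 are named for a transposable element: their Swiss-Prot description contains "transpos", "LINE-1", "mobile element" or "Retrovirus-related Pol". The rule reads the name and no expression value, but it was chosen with earlier results of these data known. The labels give 3-year-old fish, with 8 groups of 2 libraries each, 16 in all: female gonad (ovary), male gonad (testis), female brain, male brain, female liver, male liver, female muscle and male muscle. No genotype or treatment is given, and the labels do not say which libraries came from the same fish, so p-values measure the spread between these libraries. The extraction protocol describes 24 libraries, and the other 8 were not analysed here.

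Transposable elements are stretches of DNA that copy or move themselves within a genome. Tc1/mariner elements are DNA transposons: a transposase cuts the element out and pastes it elsewhere. Elements with long terminal repeats (LTR elements) move through an RNA copy, which their Gag-Pol polyprotein reverse transcribes and integrates, as in retroviruses. Non-LTR elements, such as LINE-1, also move through RNA, and their reverse transcriptase primes at the nicked target DNA. In animal gonads, small RNAs bound to Piwi proteins (piRNAs) are known to silence elements, and DNA methylation and repressive chromatin do so more widely. Some element genes were taken over by the host. POGZ is a zinc finger protein of chromatin with a domain from pogo transposases, and GIN1 resembles the integrase of Gypsy-type LTR elements.

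By name, 4 features are Tc1/mariner transposases, 4 are LTR element polyproteins, 3 are non-LTR element proteins and 4 are host genes. The transposases are the Tc1 feature DN126326_c0_g1 (1745 bases), the Tcb1 features DN127093_c3_g1 (425 bases) and DN130690_c1_g1 (736 bases), and the Tcb2 feature DN143906_c0_g1 (461 bases). The LTR features are TNT 1-94 (DN127883_c4_g1, 945 bases), Ty3-I Gag-Pol (DN149290_c2_g2, 5793 bases) and a pair named opus (DN148726_c3_g1, 7351 bases, and DN149460_c6_g1, 4038 bases). The non-LTR features are TX1 (DN127598_c4_g1, 851 bases), LINE-1 ORF2 (DN149371_c2_g1, 1682 bases) and the polymerase of transposon BS (DN149477_c11_g1, 990 bases). The host genes are GIN1 (DN135802_c3_g1) and 3 POGZ features (DN130814_c6_g1, DN141830_c1_g1 and DN141830_c1_g3), the last of which are neighbours in 1 assembled cluster.

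The names are those of the closest known protein, often of a distant species. The Tc1 name comes from Caenorhabditis elegans, and TNT 1-94 from tobacco. The closest nucleotide entry to the Tcb1 feature DN127093_c3_g1 is a Tc1-like transposon of the flounder Platichthys flesus. The names Tc1 and Tcb1 thus do not by themselves mark separate families. For the Tcb2 feature the closest nucleotide entry is a ribosomal protein mRNA of Salmo salar. The deposited domain annotation gives a transposase domain to 3 of the 4 Tc1/mariner features, all but DN127093_c3_g1, and an integrase core to 3 of the 4 LTR features, all but TNT 1-94. It gives the reverse transcriptase domain PF00078 to none of the 3 non-LTR features. No domain at all is given to DN127093_c3_g1, TNT 1-94, TX1, LINE-1 ORF2 or GIN1. The LINE-1 ORF2 feature also had the lowest Swiss-Prot score of the 15, 130 (E-value 3.8e-06). The TX1 name is uncertain, since the closest entry of the wider NR protein database to that feature is a sialic acid-binding Ig-like lectin. Elements exist in many near-identical copies, so reads may be shared among copies and between these features, and each value is uncertain to that extent. The strand setting of the counting is not given in the sources used here.

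Depth was 5134221 to 12972574 counts per library over the listed features, and the table holds 51.4 to 80.4% of the fragments of a library. Every listed feature has at least 0.31 FPKM, the authors' level scaled to feature length and library size, in each library. Elements and other genes silent in any of these tissues are thus outside the table. Marker lists checked the other tissue labels. Liver markers summed to 39621 to 87881 FPKM in liver against at most 160 FPKM elsewhere, muscle markers to 18491 to 100018 FPKM in muscle against at most 673 FPKM elsewhere, and brain markers to 383 to 2295 FPKM in brain against at most 93.6 FPKM elsewhere. None of 9 ovary markers and none of 5 germ cell markers was matched in the table, which does not show that they were absent from the gonads. The 1 matched testis marker, odf3, had 51.4 to 53.0 FPKM in female gonad against 47.9 to 50.3 FPKM in male gonad, so the gonad labels could not be checked by defining genes. In bulk tissue, fewer cells of a type and less RNA per cell cannot be told apart.

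The comparison of female with male gonad asks in which sex the elements were more abundant in the reproductive organ. Most were lower in ovary: of the 15 features, 10 fell and 2 rose in female relative to male gonad, against 23.8% of all features that fell and 23.3% that rose (47.1% called in either direction, edgeR quasi-likelihood test, Benjamini-Hochberg adjusted p below 0.05). The median log2 difference of the 15 was -1.88, beside -0.02 over all features. Among the 11 element features, 8 fell and 1 rose, with a median of -3.48. Among the 4 host genes, 2 fell and 1 rose. The groups did not overlap in scaled counts for 13 of the 15 features, against 78.1% of all features.

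The Tc1 feature was the exception among the elements. It had 242.5 and 188.4 FPKM in female gonad, from 4835 and 3979 counts, against 23.6 and 21.6 FPKM in male gonad, from 510 and 530 counts. Both ovary libraries lay far above both testis libraries, a log2 difference of 3.93 ± 0.51 (SE, n = 2 each), or 15.2-fold (edgeR adjusted p = 9.77e-05). The call held with each gonad library left out.

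The other 3 transposases went the opposite way. The Tcb1 feature DN127093_c3_g1, the shortest of the 15, had 3.63 and 7.07 FPKM in female gonad against 179.3 and 176.6 FPKM in male gonad, from 7 and 9 counts against 190 and 202. The groups were well apart, with a log2 difference of -3.75 ± 0.43 (SE, n = 2 each; edgeR adjusted p = 5.19e-05). The second Tcb1 feature, DN130690_c1_g1, had 1.42 and 0.37 FPKM in female gonad against 7.15 and 14.9 FPKM in male gonad. Its log2 difference was -2.68 ± 0.73 (edgeR adjusted p = 0.00865), from 4 counts in all against 50. The Tcb2 feature had 1 and 0.93 FPKM in female gonad against 5.26 and 6.04 FPKM in male gonad. Its log2 difference was -1.88 ± 0.62 (edgeR adjusted p = 0.0239), from 4 counts against 28.

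These low-count calls rest on few molecules. The ratio of summed scaled counts, female over male gonad, was 0.144 for DN130690_c1_g1, with an exact 95% interval of 0.0377 to 0.391 that covers counting error only, and 0.257 for Tcb2 (0.0654 to 0.733). DN130690_c1_g1 lost its call without female gonad 1 (adjusted p = 0.0535), female gonad 2 (0.0588) or male gonad 2 (0.116, where its log2 difference was -1.74). Tcb2 lost its call without any 1 of the 4 gonad libraries, at adjusted p of 0.0601 to 0.109, and in DESeq2, at 0.0927.

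**Figure D1:**
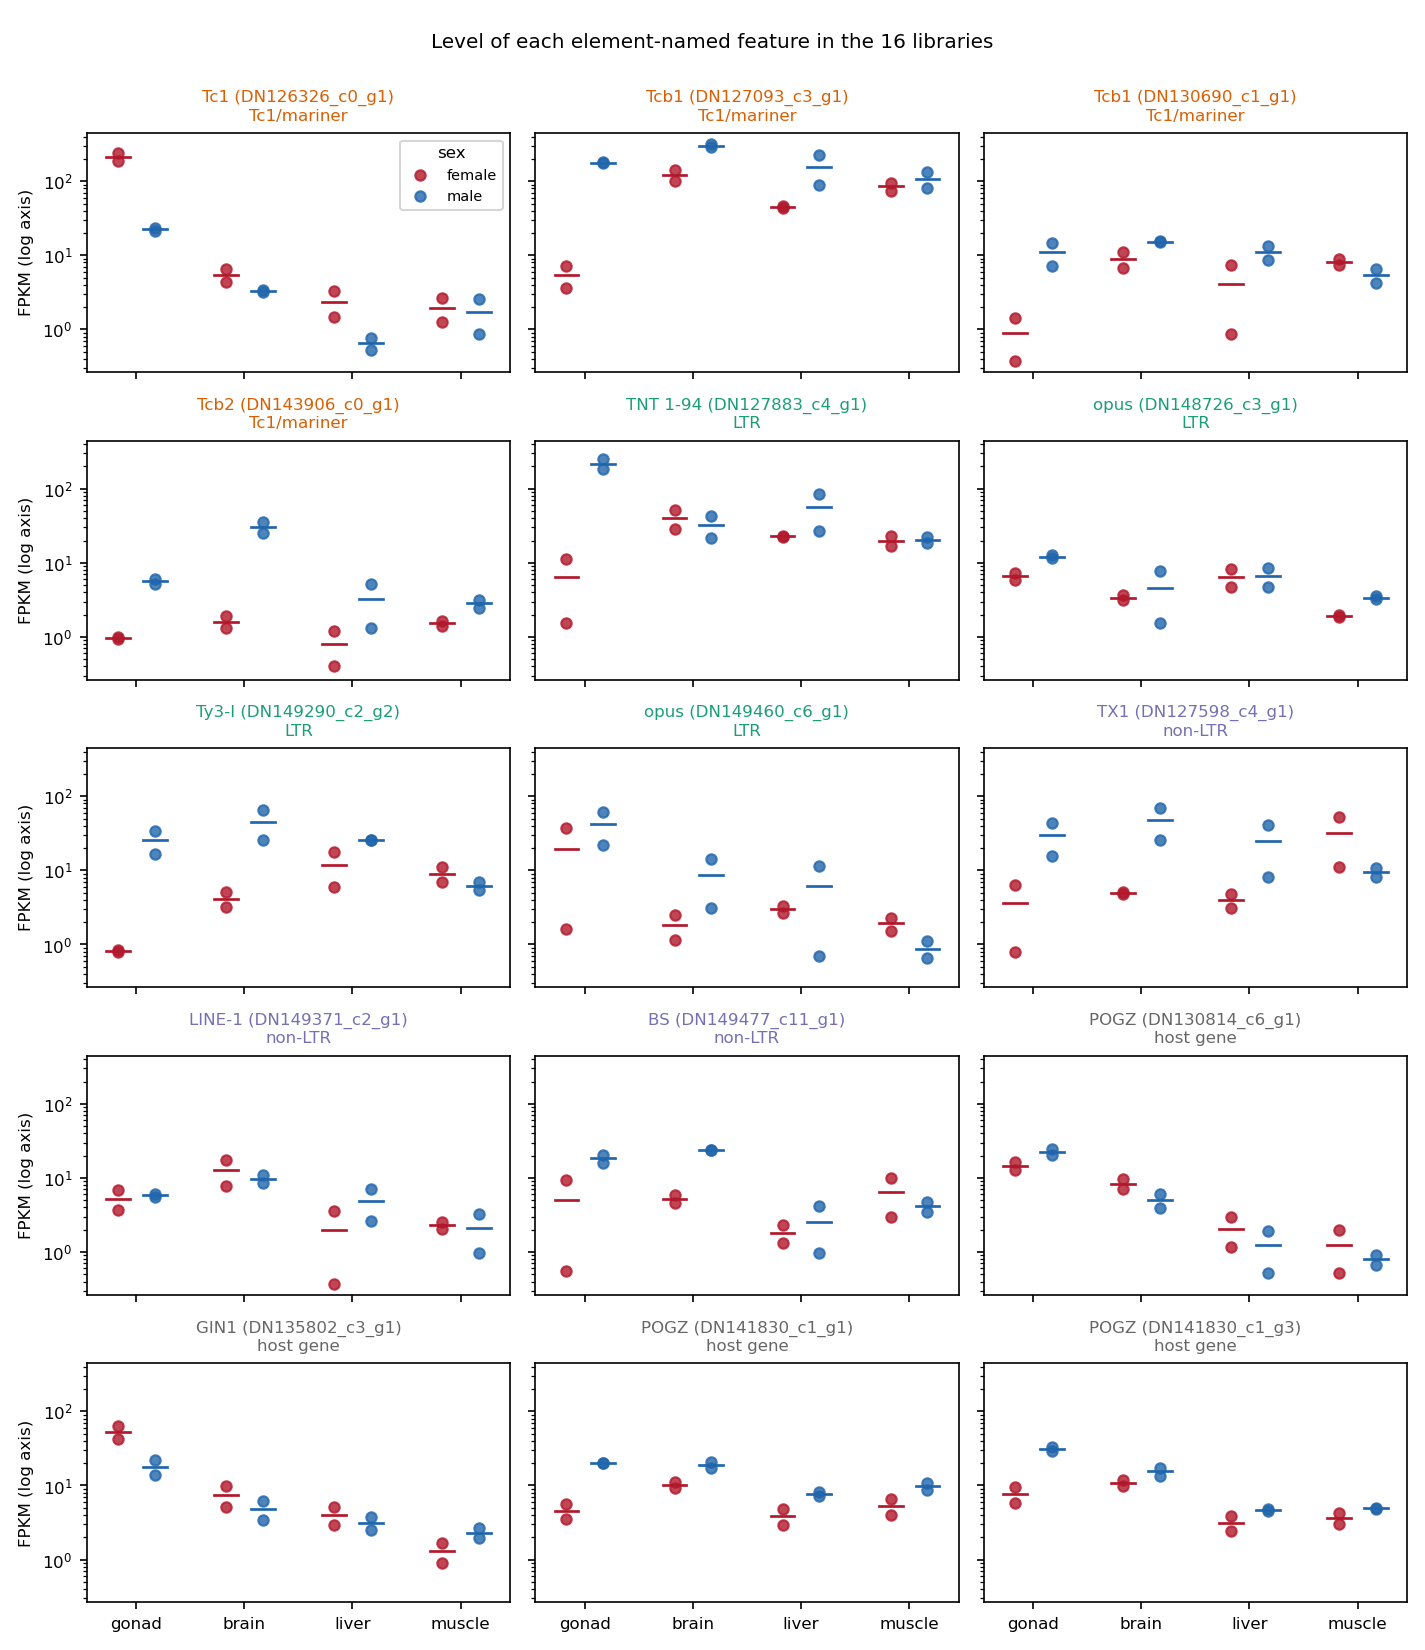
Level of each of the 15 features (FPKM, log axis) in gonad, brain, liver and muscle, with female libraries in red left of male libraries in blue, points for libraries and lines for the mean of 2. Tc1 is highest in female gonad, at a mean of 215 FPKM, while the Tcb1 feature DN127093_c3_g1 is lowest there, at 5.35 FPKM.

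LTR elements were mostly low in ovary. TNT 1-94, named for a tobacco retrotransposon, had 1.55 and 11.3 FPKM in female gonad, from 1 and 8 counts, against 255.2 and 182.9 FPKM in male gonad, from 287 and 206 counts. Its log2 difference, -4.91 ± 0.97 (SE, n = 2 each; edgeR adjusted p = 0.00131), was the largest of the 15. One ovary library sets its size: it was -4.14 without female gonad 1 and -6.88 without female gonad 2, and the ratio of summed scaled counts was 0.0328 (exact 95% counting interval 0.0149 to 0.0628).

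Ty3-I Gag-Pol, named for the yeast element and one of the best covered of the 15, had 0.85 and 0.80 FPKM in female gonad, from 65 and 64 counts. In male gonad it had 34.5 and 16.7 FPKM, from 2508 and 1536 counts. The ovary libraries lay close together and far below testis, with a log2 difference of -4.14 ± 0.76 (edgeR adjusted p = 0.00081).

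The opus pair, both matched to the Pol polyprotein of a Drosophila element, did not move alike. DN149460_c6_g1 had 2 and 5 counts in female gonad against 150 and 94 counts in male gonad, a log2 difference of -4.24 ± 0.61 (edgeR adjusted p = 0.000195). Its FPKM overlapped, at 1.62 and 36.98 in female gonad against 62.2 and 21.8 in male gonad. The high ovary value comes from 5 counts over an implied effective length of 9.38 bases. On log2(FPKM + 1) in limma the difference was -1.93 and was not called (adjusted p = 0.17), and from counts it was -4.98 without female gonad 2. The ratio of summed scaled counts was 0.0515 (exact 95% counting interval 0.0205 to 0.108).

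DN148726_c3_g1, the longest of the 15, had 7.27 and 5.95 FPKM in female gonad against 12.7 and 11.5 FPKM in male gonad. Its log2 difference from counts was 0.50 ± 0.50 (edgeR adjusted p = 0.421), and it had the other sign when libraries were scaled to their recovered total fragments (-0.19). No call was made for it in either direction.

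Of the 3 non-LTR features, 2 fell. The BS polymerase, named for a Drosophila element of the jockey type, had 2 and 5 counts in female gonad against 84.5 and 141 counts in male gonad. The log2 difference was -4.09 ± 0.69 (edgeR adjusted p = 0.000483). It was -4.83 without female gonad 2, and the ratio of summed scaled counts was 0.0559 (exact 95% counting interval 0.0222 to 0.117). The TX1 feature, named for a Xenopus element, had 0.79 and 6.44 FPKM in female gonad, from 5 and 5 counts. In male gonad it had 43.6 and 15.7 FPKM, from 86 and 122 counts. Both ovary libraries were below both testis libraries, with a log2 difference of -3.48 ± 0.56 (edgeR adjusted p = 0.00037).

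The LINE-1 ORF2 feature, named for the reverse transcriptase and endonuclease of that element, had 6.77 and 3.71 FPKM in female gonad against 6.08 and 5.56 FPKM in male gonad. The groups overlapped, and the log2 difference of 0.68 ± 0.60 was not called (edgeR adjusted p = 0.364). Scaled to recovered totals it was -0.02.

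Among the host genes, GIN1 was higher in ovary. It had 42.6 and 64.4 FPKM in female gonad, from 1114 and 1332 counts, against 21.99 and 13.7 FPKM in male gonad, from 520 and 376 counts. The groups did not overlap, and the log2 difference was 2.28 ± 0.45 (edgeR adjusted p = 0.00141). POGZ gave 2 features that fell. They share an assembled cluster and a closest nucleotide entry, so they may be parts of 1 gene, which was not tested. DN141830_c1_g1 had 3.53 and 5.65 FPKM in female gonad against 20.1 and 20.2 FPKM in male gonad, a log2 difference of -1.38 ± 0.44 (edgeR adjusted p = 0.0192). DN141830_c1_g3 had 5.79 and 9.59 FPKM in female gonad against 32.6 and 28.8 FPKM in male gonad, a log2 difference of -1.17 ± 0.36 (edgeR adjusted p = 0.0169).

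The calls of these 2 POGZ features were marginal. DN141830_c1_g1 lost its call without female gonad 1 (adjusted p = 0.126), male gonad 1 (0.0502) or male gonad 2 (0.0677). DN141830_c1_g3 lost it without female gonad 1 (0.154) or male gonad 1 (0.082). The third POGZ feature, DN130814_c6_g1, had 12.7 and 16.5 FPKM in female gonad against 24.8 and 20.6 FPKM in male gonad, but its scaled counts overlapped, with a log2 difference of -0.00 ± 0.51 (edgeR adjusted p = 0.995). Outside the 15, DN141830_c1_g4 of the same assembled cluster as the 2 that fell carries a POGZ name in NR only. It had 0.71 and 1.35 FPKM in female gonad against 16.9 and 20.1 FPKM in male gonad. Its log2 difference was -3.52 ± 0.54 (edgeR adjusted p = 0.000283).

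Scaling sets the zero of these differences. With libraries scaled to their recovered total fragments in place of TMM, the median over all features in the gonad comparison was -0.72, and that of the 15 features was -2.58. Rescaling shifts all features by about the same amount, so the gap between these medians could not change and tests nothing. Each of the 12 calls in gonad kept its direction, which a downward shift could not reverse for those that fell. Fewer features fell without female gonad 1, and the share of all features called in that fit was not computed.

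Marker levels also differed between the gonads, and their part in these results was not tested. Over all features 23.3% rose and 23.8% fell in female relative to male gonad. The 4 matched of 5 proliferation markers summed to 2348 to 2354 FPKM in female gonad against 659 to 799 FPKM in male gonad, and 2 of the 4 rose. The 4 immune features, of which the one with the symbol LCP1 is named for a digestive cysteine proteinase, summed to 53.5 to 157 FPKM in female gonad against 547 to 4098 FPKM in male gonad, and 2 of the 4 fell. Haemoglobin alpha, the 1 blood marker matched, had 5.78 to 71.1 FPKM in female gonad against 5.42 to 5.85 FPKM in male gonad, where the ranges overlapped, and was not called. Brain markers summed to 11.1 to 12.4 FPKM in female gonad against 38.5 to 93.6 FPKM in male gonad, and 3 of 5 fell while 1 rose.

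The sums by type show how far 1 feature can carry a class. Over the 4 transposases the summed level was 222.7 ± 36.6 FPKM in female gonad and 217.2 ± 2.72 FPKM in male gonad (SD, n = 2 each). The totals were alike, but Tc1 made up 96.8% of the sum in female gonad, and the Tcb1 feature DN127093_c3_g1 made up 81.9% in male gonad. By mean counts in male gonad, Tc1 had 520 and that Tcb1 feature 196. As CPM, counts scaled to the listed total of the library, which weight long features, the transposases summed to 396 ± 72.8 in female gonad and 61.0 ± 0.71 in male gonad.

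The 4 LTR features summed to 33.1 ± 30.9 FPKM in female gonad and 298.8 ± 93.1 FPKM in male gonad (SD, n = 2 each), and TNT 1-94 made up 73.3% of the sum in male gonad. That share rests on implied effective lengths of 67.7 to 76.7 bases. By mean counts in male gonad TNT 1-94 had 246.5, against 2022 for Ty3-I and 839.5 for opus DN148726_c3_g1. In female gonad 58.2% of the sum was the opus feature DN149460_c6_g1, whose level in female gonad 2 rests on 5 counts. As CPM the LTR features summed to 65.1 ± 9.17 in female gonad and 263 ± 63.3 in male gonad. The 3 non-LTR features summed to 13.9 ± 4.48 FPKM in female gonad and 53.8 ± 16.8 FPKM in male gonad. The host genes summed to 80.3 ± 22.3 FPKM in female gonad and 91.3 ± 11.5 FPKM in male gonad, where the libraries of the sexes overlapped. No test was made of these sums.

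**Figure D2:**
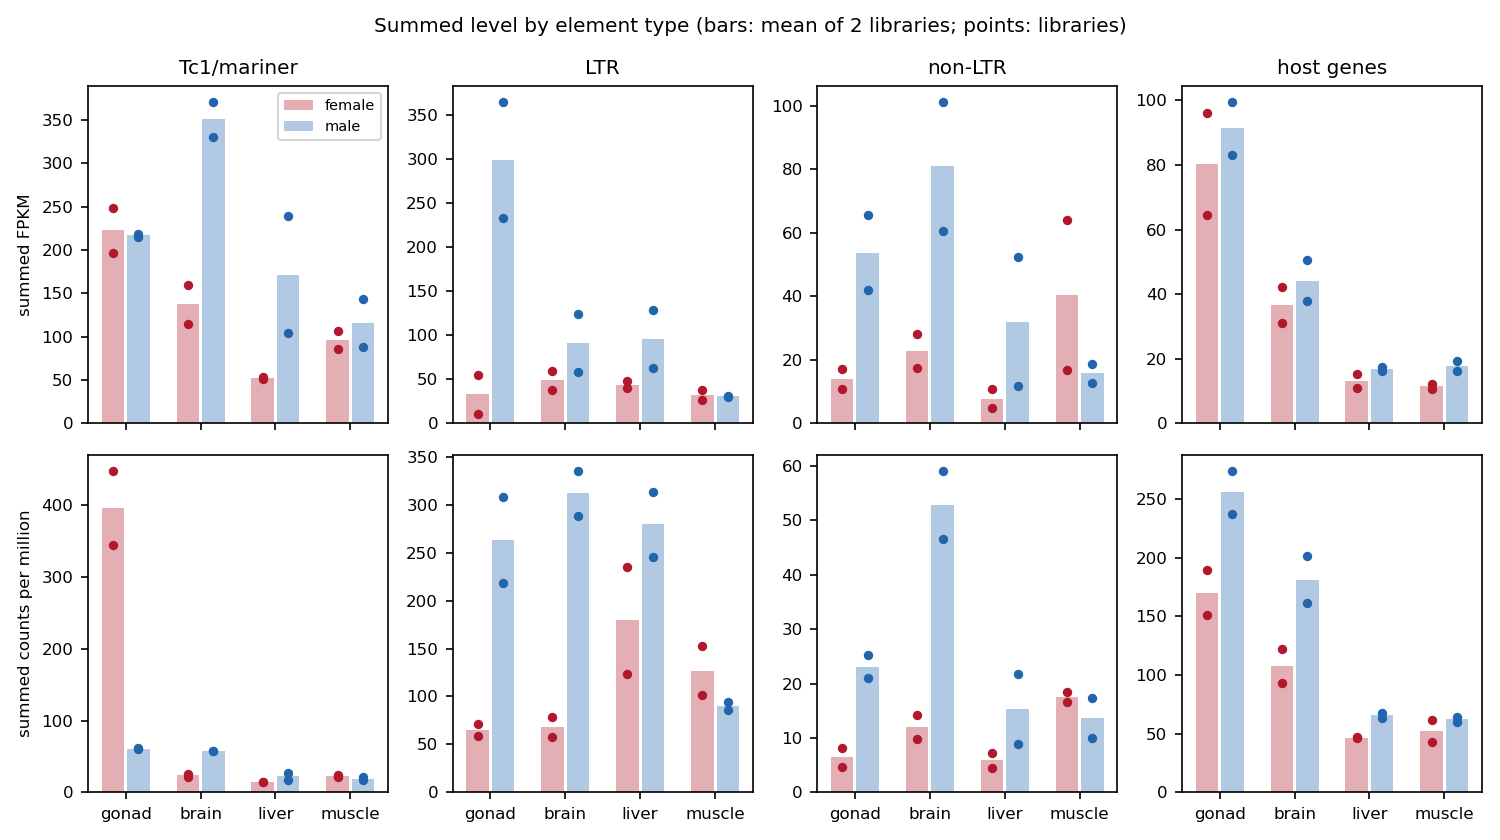
Summed level of each element type in gonad, brain, liver and muscle, as FPKM (top) and as CPM of listed counts (bottom), with female bars left of male bars, bars for the mean of 2 libraries and points for libraries. The Tc1/mariner sum of female gonad is 222.7 FPKM against 217.2 FPKM in male gonad, but 396 against 61.0 CPM.

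In brain, female libraries were compared with male libraries in the same way. Of the 15 features, 2 rose and 4 fell in female brain, against 21.4% and 18.4% of all features (39.8% called in either direction), and the median of the 15 was -0.11 beside 0.12 over all features. The largest difference was that of Tcb2, with 1.89 and 1.33 FPKM in female brain against 35.8 and 25.0 FPKM in male brain, from 5 and 3 counts against 94 and 58. Its log2 difference was -3.47 ± 0.54 (edgeR adjusted p = 0.00276), and without female brain 1 it was -4.06. The ratio of summed scaled counts, female over male brain, was 0.086 (exact 95% counting interval 0.0365 to 0.174). It was the one brain call of the 6 that held with each brain library left out.

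Ty3-I Gag-Pol had 3.18 and 5.08 FPKM in female brain against 64.6 and 25.5 FPKM in male brain, with a log2 difference of -2.26 ± 0.69 (edgeR adjusted p = 0.0212). TX1 had 5.09 and 4.85 FPKM in female brain against 26.0 and 68.6 FPKM in male brain, with a log2 difference of -1.90 ± 0.48 (edgeR adjusted p = 0.0104). The Tcb1 feature DN127093_c3_g1 had 100.1 and 142.8 FPKM in female brain against 316.6 and 286.8 FPKM in male brain, with a log2 difference of -1.10 ± 0.36 (edgeR adjusted p = 0.0293). In each of the 3, both female libraries lay below both male libraries.

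The features that rose in female brain were Tc1 and a POGZ feature. Tc1 had 6.53 and 4.41 FPKM in female brain against 3.45 and 3.22 FPKM in male brain, a log2 difference of 1.34 ± 0.48 (edgeR adjusted p = 0.0386). POGZ DN130814_c6_g1 had 7.03 and 9.55 FPKM in female brain against 6.08 and 3.96 FPKM in male brain, a log2 difference of 2.11 ± 0.56 (edgeR adjusted p = 0.0127). Neither was called with recovered totals (adjusted p = 0.257 and 0.0551) or in limma on log2(FPKM + 1) (0.309 and 0.279).

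With some brain library left out, 5 of the brain calls were lost. Such a fit leaves 1 library in a group, and the share of all features that lost a call was not computed. Where they lost the call, Ty3-I was at -2.07 to -2.48 and DN127093_c3_g1 at -0.96 to -1.35. Tc1 lost its call without female brain 1 (adjusted p = 0.264), male brain 1 (0.156) or male brain 2 (0.203). POGZ DN130814_c6_g1 lost it without female brain 2 (0.0759), male brain 1 (0.0769) or male brain 2 (0.0999). Ty3-I lost it without female brain 1 (0.128), female brain 2 (0.075) or male brain 1 (0.0639), and TX1 without female brain 1 (0.0583), female brain 2 (0.0684) or male brain 2 (0.0709); without male brain 1, TX1 was at -2.51. DN127093_c3_g1 lost it without any 1 of the 4 (0.0546 to 0.155).

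Marker levels differed between female and male brain too. Brain markers summed to 1644 to 2295 FPKM in female brain against 383 to 563 FPKM in male brain, and haemoglobin alpha had 1237 to 3941 FPKM in female brain against 3.15 to 111 FPKM in male brain. Their part in the brain differences was not tested.

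Liver and muscle gave few calls. In liver, Tc1 rose, with 3.26 and 1.46 FPKM in female liver against 0.53 and 0.77 FPKM in male liver, a log2 difference of 2.16 ± 0.53 (edgeR adjusted p = 0.0471). No other feature was called by edgeR, against 2.78% of all features (1.46% higher and 1.33% lower). In edgeR 4, Tc1 included, had an unadjusted p below 0.05, and DESeq2 called 2 lower. Shares of all features were not computed for the unadjusted p or the DESeq2 calls. The Tc1 call in liver was lost without female liver 1 (adjusted p = 0.512, at 1.24), male liver 1 (0.228) or male liver 2 (0.184).

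In muscle none of the 15 features was called by edgeR, against 2.96% of all features (1.2% higher and 1.75% lower), and 3 had an unadjusted p below 0.05. They were TX1, with 52.2 and 11.2 FPKM in female muscle against 8.24 and 10.8 FPKM in male muscle, the opus feature DN149460_c6_g1 and the Tcb1 feature DN130690_c1_g1. The share of all features below that unadjusted p was not computed. DESeq2 and the other alternatives called none in muscle either. Haemoglobin alpha was also higher in female than in male libraries of liver (425 to 1630 against 5.34 to 11.5 FPKM) and muscle (514 to 1619 against 29.6 to 36.0 FPKM).

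**Figure D3:**
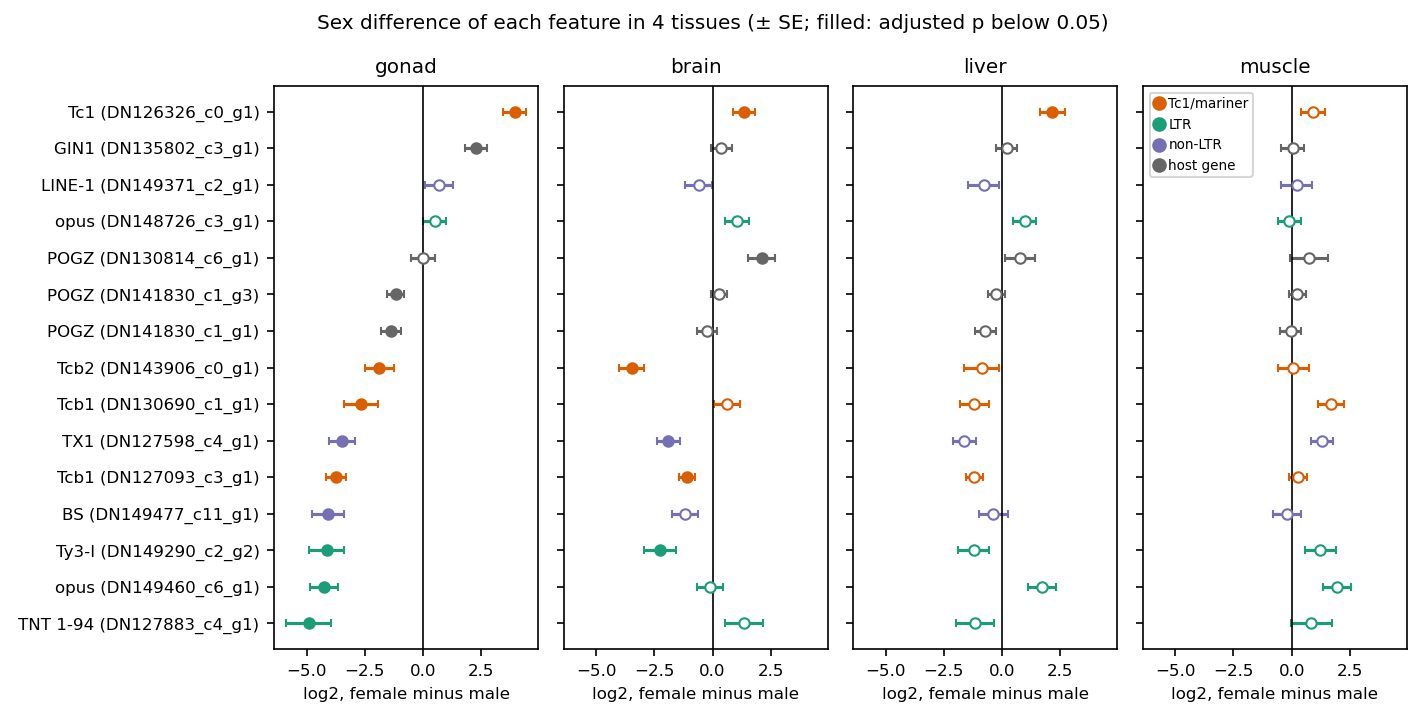
Log2 difference, female minus male, of each feature in gonad, brain, liver and muscle (± SE from edgeR, filled where the adjusted p is below 0.05), coloured by element type. In gonad 12 of the 15 points are filled, with Tc1 at 3.93 and TNT 1-94 at -4.91, against 6 in brain, 1 in liver and 0 in muscle. Over all features, 47.1% were called in gonad, 39.8% in brain, 2.78% in liver and 2.96% in muscle.

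Across tissues, 5 features were called in both gonad and brain, each in the same direction: Tc1 higher, and Ty3-I, TX1, Tcb2 and the Tcb1 feature DN127093_c3_g1 lower in the female tissue. Over all features, 19.1% (3103) were called in both tissues, and 2448 of these 3103 in the same direction. Of the 5 brain calls, all but that of Tcb2 were lost with some brain library left out. These comparisons use separate libraries, though the fish behind them may be the same. The difference between the tissues was tested directly, as the sex difference in gonad minus the mean sex difference of brain, liver and muscle. By that test 2 features had a more positive difference in gonad and 8 a more negative one, against 17.2% and 18.5% of all features (35.7% called in either direction).

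The gonad difference stood furthest from the other tissues for the opus feature DN149460_c6_g1, by -5.42 ± 0.70 (log2, SE; edgeR adjusted p = 0.000195), and for TNT 1-94, by -5.26 ± 1.07 (edgeR adjusted p = 0.00238). TNT 1-94 was at -4.43 without female gonad 1, -7.17 without female gonad 2 and -5.86 without male liver 1, and DN149460_c6_g1 at -6.10 without female gonad 2. Tc1 differed by 2.45 ± 0.55 in the other direction (edgeR adjusted p = 0.00419). Tcb2, low in females in both gonad and brain, was not called by this test, at -0.46 ± 0.69 (edgeR adjusted p = 0.655). On log2(FPKM + 1) in limma the difference was not called for DN149460_c6_g1 (adjusted p = 0.379), TX1 (0.223) and BS (0.167).

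Each gonad was also set against the mean of the other 3 tissues of its sex. In ovary 3 features were higher, against 30.6% of all features, and 9 were lower, against 31.0% (61.6% called in either direction). Those higher were Tc1 by 5.16 ± 0.35 (log2, SE; edgeR adjusted p = 1.24e-07), GIN1 by 3.36 ± 0.33 (edgeR adjusted p = 2.25e-06) and POGZ DN130814_c6_g1 by 1.58 ± 0.43 (edgeR adjusted p = 0.00611). The POGZ call was lost without female gonad 2 (adjusted p = 0.0567).

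The lowest in ovary relative to the other female tissues were the Tcb1 features DN130690_c1_g1, by -4.40 ± 0.67 (edgeR adjusted p = 9.18e-05), and DN127093_c3_g1, by -4.19 ± 0.41 (edgeR adjusted p = 2.22e-06). Ty3-I followed at -4.05 ± 0.71 (edgeR adjusted p = 0.000264), TX1 at -3.99 ± 0.53 (edgeR adjusted p = 3e-05) and TNT 1-94 at -3.57 ± 0.89 (edgeR adjusted p = 0.00332). Without female liver 2, Ty3-I was at -3.30, and TNT 1-94 was at -2.78 without female gonad 1 and -5.52 without female gonad 2. TX1 was not called in limma on log2(FPKM + 1) (adjusted p = 0.129).

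In testis 6 features were higher than in the other male tissues, against 16.2% of all features, and 3 were lower, against 13.1% (29.4% called in either direction). Fewer were called without male gonad 1, and the share of all features called in that fit was not computed. Those higher included POGZ DN130814_c6_g1 by 2.79 ± 0.42 (log2, SE; edgeR adjusted p = 0.000365), Tc1 by 2.71 ± 0.35 (edgeR adjusted p = 0.000154) and the opus feature DN149460_c6_g1 by 2.37 ± 0.39 (edgeR adjusted p = 0.000689). GIN1 was higher by 1.29 ± 0.34 (edgeR adjusted p = 0.012), and lost its call without male gonad 1 (adjusted p = 0.212). The features that were lower, the 2 named Tcb1 and TX1, were not called with recovered totals (adjusted p = 0.867, 0.803 and 0.903), where the median over all features was 1.17. DN127093_c3_g1 also lost its call without male gonad 1 (0.123) or male gonad 2 (0.111). DN130690_c1_g1 lost it without male brain 1 or 2, male liver 1 or 2, male gonad 1 or male muscle 1 (0.0568 to 0.384), was at -2.32 without male gonad 2, and was at an adjusted p of 0.05, no longer below the threshold, with the replicate number as a block. TX1 lost it without male brain 2, male liver 2 or either male gonad library (0.0663 to 0.233). Tc1 was thus above the other tissues in both gonads, with the male gonad mean at 22.6 FPKM and the next group, female brain, at 5.47 FPKM.

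Ordered by mean FPKM, 6 features were highest in male gonad, 6 in male brain, 2 in female gonad and 1 in female brain. Over all features the shares were 29.8% in male gonad, 15.7% in male brain, 25.4% in female gonad and 11.5% in female brain. Female gonad and female liver were each the lowest group for 5 features, and for 2596 and 2788 of all 16270 features. Tc1 had the widest range, 331-fold between a mean of 215 FPKM in female gonad and 0.65 FPKM in male liver, and its next highest group, male gonad, did not overlap the first. The Tcb1 feature DN127093_c3_g1 had the highest mean over all 16 libraries, 125 FPKM, and ran from 302 FPKM in male brain to 5.35 FPKM in female gonad. By FPKM it was the leading transposase in all groups but female gonad, over implied effective lengths of 45.5 to 105 bases in those groups. By mean counts Tc1 was above it in male gonad (520 against 196) and female brain (106 against 86) as well.

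TNT 1-94 was highest in male gonad, at a mean of 219 FPKM, and the next group, male liver, at 56.7 FPKM, did not overlap it in FPKM. In scaled counts, male gonad did overlap the other male tissues. There its log2 difference was 1.69 ± 0.59 (edgeR adjusted p = 0.0442). That call was lost without either male gonad library, at 1.31 without male gonad 1 and 1.93 without male gonad 2, and without some other male libraries. Ty3-I was highest in male brain, at 45.0 FPKM, but overlapped male liver, at 25.9 FPKM, and was lowest in female gonad, at 0.83 FPKM. LINE-1 ORF2 was highest in female brain, at 12.7 FPKM, and overlapped male brain, at 9.70 FPKM. POGZ DN141830_c1_g3 was highest in male gonad, at 30.7 FPKM, above male brain, at 15.5 FPKM, with no overlap.

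Genes listed by symbol for element silencing or restriction were followed beside the elements, and whether each acts on elements here was not tested. The piRNA list of 26 symbols matched only 5 symbols, with 9 features, and no Piwi gene was matched. Genes silent in any of these tissues are outside the table, so the 9 features cover the pathway only in part. In female relative to male gonad 3 of the 9 rose and 2 fell, against 23.3% and 23.8% of all features, with a median log2 difference of 0.52. WDR77, a partner of the arginine methyltransferase PRMT5, had 285.4 and 226.3 FPKM in female gonad against 74.2 and 49.6 FPKM in male gonad, a log2 difference of 2.71 ± 0.36 (edgeR adjusted p = 0.000113). The Tudor protein gene tdrd3 had 113.8 and 129.5 FPKM in female gonad against 53.9 and 48.0 FPKM in male gonad, a log2 difference of 1.93 ± 0.36 (edgeR adjusted p = 0.000931). Relative to the other tissues of the same sex, 6 of the 9 were higher in ovary and 9 of the 9 in testis, against 30.6% and 16.2% of all features.

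Of 35 features from 24 matched symbols of the chromatin and DNA methylation list, 9 rose and 7 fell in female relative to male gonad, with a median of 0.13. These counts are near the shares over all features (23.3% and 23.8%). Those that rose were led by TET2, an enzyme that oxidises methylated cytosine, at 26.9 and 24.6 FPKM in female gonad against 6.57 and 6.01 FPKM in male gonad (log2 difference 3.17 ± 0.33, edgeR adjusted p = 3.13e-05). HELLS, a helicase needed for DNA methylation of repeats, had 120.9 and 121.9 FPKM in female gonad against 31.8 and 30.0 FPKM in male gonad (2.73 ± 0.33, edgeR adjusted p = 6.32e-05). DNMT1, which maintains DNA methylation, had 172.6 and 190.9 FPKM in female gonad against 62.5 and 46.3 FPKM in male gonad (2.38 ± 0.44, edgeR adjusted p = 0.000875). Cbx5, a heterochromatin protein gene, was higher by 2.45 ± 0.58 (edgeR adjusted p = 0.00406), but its ovary libraries lay apart, at 166.6 and 36.3 FPKM, and it was at 0.94 and not called without female gonad 1 (adjusted p = 0.143).

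Those that fell were led by TET3, related to TET2, and DNMT3B, which sets new DNA methylation. TET3 had 1.14 and 4.83 FPKM in female gonad against 11.2 and 44.1 FPKM in male gonad (log2 difference -2.77 ± 0.85, edgeR adjusted p = 0.0165). DNMT3B had 3.22 and 4.92 FPKM in female gonad against 46.1 and 32.7 FPKM in male gonad (-2.46 ± 0.78, edgeR adjusted p = 0.0194). TET3 lost its call without female gonad 1 (adjusted p = 0.114) or male gonad 2 (0.175, at -1.60), and DNMT3B without female gonad 1 (0.117), female gonad 2 (0.0579) or male gonad 1 (0.0665).

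Of 11 features from 8 matched symbols of the list of genes that act on RNA, 1 rose and 6 fell in female relative to male gonad, against 23.3% and 23.8% of all features, with a median of -0.98. In female relative to male brain 1 rose and 4 fell, against 21.4% and 18.4% of all features, with a median of -1.03. ADAR, which edits double-stranded RNA, had 7.81 and 10.2 FPKM in female gonad against 28.7 and 34.5 FPKM in male gonad (log2 difference -1.85 ± 0.48, edgeR adjusted p = 0.00668). AGO3, an Argonaute protein gene of the microRNA pathway, had 0.48 and 0.64 FPKM in female gonad against 3.54 and 9.86 FPKM in male gonad (-3.05 ± 0.89, edgeR adjusted p = 0.0131). Of 3 features named dicer1, the nuclease that makes microRNAs, 2 fell, by -1.95 ± 0.58 (edgeR adjusted p = 0.0144) and -1.86 ± 0.60 (edgeR adjusted p = 0.021). The third was at -0.10 ± 0.32 (edgeR adjusted p = 0.827).

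Of the 6 that fell in gonad, ADAR alone kept its call with each gonad library left out. AGO3 lost its call without female gonad 1 (adjusted p = 0.0792), female gonad 2 (0.0601) or male gonad 2 (0.1, at -2.18). The dicer1 features lost theirs without female gonad 2 (0.101 and 0.14) or male gonad 2 (0.096 and 0.154). AGO1 and RNASEH2C lost theirs without any 1 of the 4 gonad libraries, at adjusted p of 0.0669 to 0.211 and of 0.0675 to 0.201. Over the 3 lists together, of 9, 35 and 11 features, 13 rose and 15 fell, against 23.3% and 23.8% of all features. Fewer were called without male gonad 2, female gonad 2 or female gonad 1. The shares of all features called in those fits, with 1 library left in a group, were not computed.

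**Figure D4:**
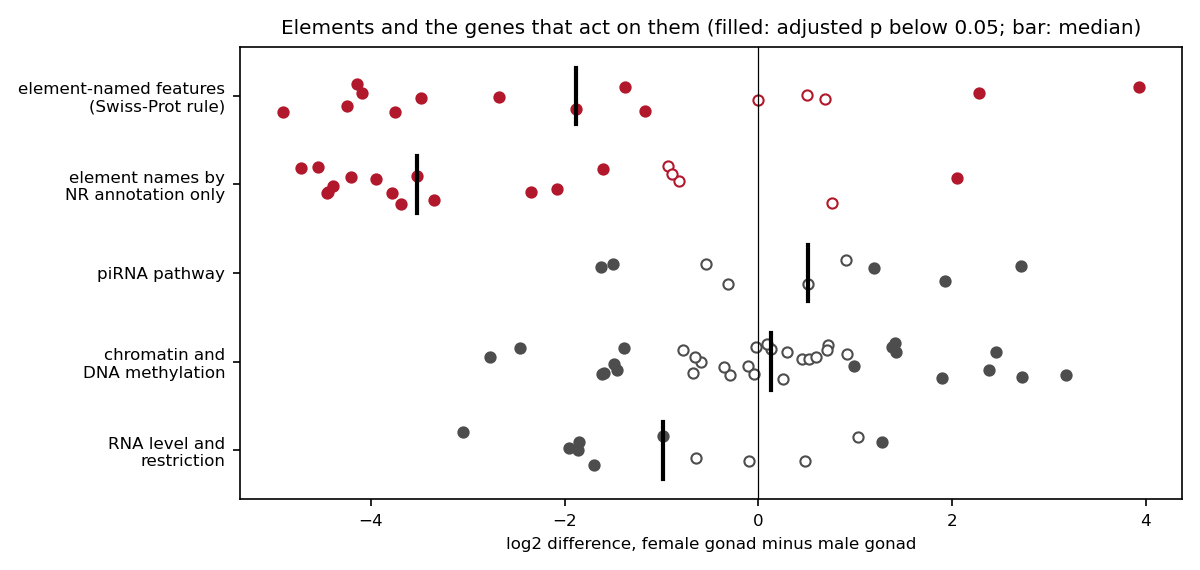
Log2 difference, female minus male gonad, of the 15 element-named features, of features that carry an element name only in the NR annotation, and of 3 lists of genes chosen for element silencing or restriction (filled where the edgeR adjusted p is below 0.05, bars for medians). The medians are -1.88 for the 15 features, -3.52 for the NR-named features, 0.52 for the piRNA list, 0.13 for the chromatin list and -0.98 for the RNA list.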

How the data were processed

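RNA-seq was analysed from 16 libraries, 2 per sex and tissue. The authors deposited 1 table that holds, per the file headers, an expected count and an FPKM per feature and library. RSEM is named in the submitters' processing notes. Versions, assembler, aligner, genome build and strand setting: not given in the sources used here. Columns were matched to samples by their titles. Another 16 value columns match no listed sample and were not used here. The series text lists pituitary and no muscle, whereas the sample labels list muscle; muscle was used.

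Counts were rounded and tested in edgeR 4.0.16 (R 4.3.3) by the two-sided quasi-likelihood F test with TMM scaling (factors 0.623 to 1.84), a mean for each of 8 groups and 8 residual degrees of freedom. P-values were adjusted by Benjamini-Hochberg over all 16270 features within each comparison, with a threshold of 0.05. No feature was filtered out. The design allowed for a table of RPKM alone; counts were found, so edgeR was used. The SE is the log2 difference divided by the root of F. Total fragments per library (9658801 to 16644421) were estimated by dividing counts by FPKM, and implied effective lengths from that total. FPKM divides by effective length, which can be very short for short features, so folds of counts and of FPKM can disagree. Counts set the precision, and intervals cover counting error only. Libraries of different tissues may share a fish, and the fit treats them as independent.

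Alternatives were recovered totals, DESeq2 1.42.0, a mean count of at least 50, limma 3.58.1 on log2(FPKM + 1) and log2(FPKM + 0.1), gonad libraries only, the replicate number as a block, and each library left out. Element types followed the wording of the name; that wording placed POGZ with Tc1/mariner and GIN1 with LTR elements, and both were set apart after the names were seen. Members, gene lists and tests were chosen with earlier results of these data known. In gonad, features with an adjusted p under the threshold and no overlap between groups were named, up to 12 each way. Elsewhere up to 5 each way were named, with the 3 most abundant features of each type and up to 6 genes each way of the silencing lists. Features that did not pass were named to account for all 15.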

Additional observations from a re-analysis of the deposited data

Results flagged for a closer look

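For 10 of the 15 features the sex difference in gonad differed from the mean sex difference of brain, liver and muscle (edgeR quasi-likelihood test of the difference itself, Benjamini-Hochberg adjusted p below 0.05, against 35.7% of all features). Among LTR features the difference between differences was -5.42 (log2) for the opus feature DN149460_c6_g1, -5.26 for TNT 1-94 and -3.40 for Ty3-I. Among transposases it was 2.45 for Tc1, -3.07 for the Tcb1 feature DN127093_c3_g1 and -3.05 for the Tcb1 feature DN130690_c1_g1. It was -3.50 for BS and -2.75 for TX1, and among host genes 2.07 for GIN1 and -1.26 for POGZ DN141830_c1_g3.

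Leaving out 1 library ended the call for 3 of these. DN130690_c1_g1 was not called without female gonad 1 (adjusted p = 0.0576), female gonad 2 (0.0555) or male gonad 2 (0.0997, at -2.06). GIN1 was not called without male gonad 2 (0.053). POGZ DN141830_c1_g3 was not called without female gonad 1 (0.212), male gonad 1 (0.129), male gonad 2 (0.0769), female muscle 2 (0.0503) or male brain 2 (0.0644). Another 4 stayed called but moved by over 1.5 times. TNT 1-94 was at -4.43 without female gonad 1, -7.17 without female gonad 2 and -5.86 without male liver 1. DN149460_c6_g1 was at -6.10 and BS at -4.18 without female gonad 2, and Ty3-I was at -2.64 without female liver 2.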

How the results depend on the processing

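In gonad each of the 12 calls kept its direction under each alternative run for it, 8 kept the call with each gonad library left out and 7 under all that were run; 4 of the 12, of which 1 (BS) is among the 7, were below the mean-count filter and had no value there. A mean count of at least 50 left 6 that fell, from fewer features tested. With 1 library left out, 2 rose and 6 to 8 fell in gonad, 0 to 1 rose and 1 to 2 fell in brain, 0 to 1 rose and 0 to 1 fell in liver, 2 to 3 rose and 7 to 9 fell in ovary against other female tissues, and 3 to 6 rose and 0 to 4 fell in testis against other male tissues. For the difference between sex differences it was 1 to 2 more positive and 6 to 8 more negative. Of the silencing lists (13 rose and 15 fell in gonad), 8 to 11 rose and 5 to 11 fell. Shares of all features were not computed for the fits with 1 library left out. For the next counts, apart from the mean-count filter, the cause was not tested. In brain 0 rose with recovered totals or in limma on log2(FPKM + 1) or log2(FPKM + 0.1), and 1 with the mean-count filter. In liver 0 rose with recovered totals or limma, and 2 fell in DESeq2. In ovary 5 rose with recovered totals, 5 fell with the filter and 4 fell in either limma fit. In testis 0 fell with recovered totals or either limma fit. Of differences between sex differences, 1 was more positive in limma with 0.1 added, and 5 were more negative in either limma fit or with the filter. Of the silencing lists 6 rose with recovered totals and 7 in either limma fit. With host genes apart 1 element rose in gonad, a choice made after seeing the data.

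Some differences changed sign, and the cause was not tested. In gonad, opus DN148726_c3_g1 (not called) was at -0.19 with recovered totals and -0.79 and -0.87 in limma with 1 and 0.1 added. LINE-1 (not called) was at -0.019, -0.17 and -0.21 in the same settings. POGZ DN130814_c6_g1 (not called) was at 0.046 in DESeq2 and at -0.23 to 0.16 with 1 gonad library left out. In ovary against other tissues, opus DN149460_c6_g1 was at 1.66 and 1.85 in limma. In testis against other tissues, Tcb1 DN127093_c3_g1 was at 0.074 with recovered totals and 0.12 and 0.12 in limma, Tcb1 DN130690_c1_g1 at 0.093 and 0.11, and TX1 at 0.40 and 0.43.

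By the fixed wording, with POGZ and GIN1 in, the summed FPKM of female over male gonad was -1.87 (log2) for LTR features, -0.22 for Tc1/mariner and -1.95 for non-LTR. LTR was at -0.78 in CPM, -0.083 with TMM scaling, -0.28 without its most abundant feature and -3.17 without GIN1. Tc1/mariner was at 0.71, 1.41, 1.11 and, without POGZ, 0.036. Non-LTR was at -1.14 with TMM scaling and -1.23 without its most abundant feature.

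With the replicate number as a block, 2 features rose and 10 fell in gonad, as without it. Of 53 feature values compared, 52 stayed on the same side of the threshold and 1 did not. The 1 was DN130690_c1_g1 in testis against other male tissues (adjusted p = 0.05). Same-numbered libraries had correlated deviations of 0.18 to 0.60 over 6 pairs of male tissues, -0.33 to 0.24 over 6 pairs of female tissues and -0.09 to 0.31 over 16 pairs across the sexes. With 2 numbers a group and no label that ties a number to a fish, they were not taken as pairs, and the male values are a hint from the data only. Depth limits the features with 1 to 9 counts in an ovary library, whose differences rest on those few counts.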

Other observations

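Element names also occur outside the Swiss-Prot rule. A list of 19 features carries one in the NR annotation, 18 of them with no Swiss-Prot name. It was chosen after the names were seen, and host genes were not set apart in it. It holds the POGZ feature DN141830_c1_g4, whose log2 difference of -3.52 is also the median of the list. It also holds features named LINE-1 type transposase domain-containing protein 1. In female relative to male gonad 14 of the 19 fell and 1 rose (edgeR quasi-likelihood test, Benjamini-Hochberg adjusted p below 0.05), with a median log2 difference of -3.52, against 23.8% and 23.3% of all features. Among those that fell was a jockey-type polymerase feature, DN149468_c10_g2, with 1.73 and 0.95 FPKM in female gonad against 48.9 and 63.9 FPKM in male gonad, a log2 difference of -4.72 ± 0.66 (SE, n = 2 each; edgeR adjusted p = 0.000152). A feature named for a putative transposase of the plaice Pleuronectes platessa, DN126474_c2_g1, had 1.65 and 0.51 FPKM in female gonad against 28.6 and 26.6 FPKM in male gonad. Its log2 difference was -4.45 ± 0.61 (edgeR adjusted p = 0.000135). Another feature of that name, DN137986_c0_g1, was not called, at -0.82 ± 0.81 (edgeR adjusted p = 0.419). It had 2.66 and 1.78 FPKM in female gonad against 73.9 and 21.9 FPKM in male gonad. The Tcb1 feature DN127093_c3_g1 carries the same NR name. The feature that rose, DN148992_c3_g2, is named for a paired box and transposase domain protein, with a log2 difference of 2.05 ± 0.42 (edgeR adjusted p = 0.00156).

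Swiss-Prot names related to elements but outside the rule gave 6 features, of which 3 rose and 2 fell, against 23.3% and 23.8% of all features. The 3 that rose carry the name of HARBI1, a host gene derived from Harbinger transposases, by 3.21, 1.52 and 0.77 (log2; edgeR adjusted p = 8.05e-05, 0.0264 and 0.0476). The last of these, DN147683_c1_g3, overlapped in FPKM, at 7.79 and 9.38 in female gonad against 8.92 and 8.74 in male gonad. The one with the largest difference of these lists is named for an endogenous retrovirus envelope protein of the human group V (DN137506_c1_g2). It had 3.83 and 2.50 FPKM in female gonad against 1255 and 680.7 FPKM in male gonad, a log2 difference of -7.54 ± 0.59 (edgeR adjusted p = 1.14e-05).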
